A study of Mus musculus with 2 samples.

Results

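Expression of the HoxB gene cluster was compared between the arch and the central thoracic part of the mouse aorta. The members were the probes whose gene name in both scanner files was Hoxb1 to Hoxb9 or Hoxb13, which gave 14 of 41174 gene probes and all 10 genes of the cluster, of 27702 gene names on the array. Hoxb3, Hoxb6, Hoxb8 and Hoxb9 were each read by 2 probes and the other 6 genes by 1. Aortas came from C57Bl/6 mice aged 16 weeks, wild type per the labels, and were perfused with Triton X-100, a detergent, to strip the endothelium. The arch sample, labelled as the atherosclerosis-prone region, reached from the root through the arch to 2 mm into the thoracic aorta. The central thoracic sample, labelled as the resistant region, held the 6 mm that follow. RNA of 6 mice (3 males and 3 females) was pooled per region, and both pools were hybridised together on 2 arrays, where array 1 carried the arch in Cy5 and array 2, with the dyes exchanged, carried it in Cy3.

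A ratio is given as the mean log2 value, arch divided by thoracic, of both arrays, so that negative values mean less RNA in the arch pool. The number behind ± says how far each array lay from this mean. It is a technical error only: with 1 pool per region there is no biological replicate, no test and no p-value, and differences between animals are not measured. A probe was kept where the scanner software marked one of the regions, or both, as well above background on array 1 and again on array 2. It was called lower or higher where both arrays gave a ratio of 1.5-fold or more that way. Across all 30521 kept probes the half-difference between the arrays had an SD of 0.07, and 94.1% of mean ratios lay within 0.2 of 0.

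Hox genes encode homeodomain transcription factors that give cells of the embryo their position along the body axis. They lie in clusters, and genes from one end of a cluster to the other are switched on at progressively more posterior levels, so that a combination of Hox genes marks a segment. Adult mesenchymal cells, vascular smooth muscle and fibroblasts among them, keep part of this pattern. The wall of the aortic arch draws smooth muscle cells from neural crest and heart field, and the descending aorta from somites. In the RefSeq table (assembly GRCm38.p6, used for names and neighbours) all 10 members matched. The entry of Hoxb3 overlaps Hoxb4 and the microRNA gene Mir10a, the noncoding Hoxb5os overlaps Hoxb5 and Hoxb6, and the noncoding Hoxb3os overlaps Hoxb2 and Hoxb3. None of the 9 other RefSeq entries inside the cluster was matched to a probe on the array, so a share of any overlapping transcript in these signals was not tested.

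The promoter table from RefSeq (GRCm38.p6) held an entry for 3 members, one for each state of detection reported below: Hoxb1 (well above background in neither region), Hoxb4 (in both) and Hoxb8 (at one of its probes in the thoracic pool only). The 250 bases before each listed start are shown 5′ to 3′, all on the plus strand, at chr11:96365508-96365757, chr11:96318017-96318266 and chr11:96281655-96281904. Capitals mark matches on either strand to 5 short motifs: CCAAT (the box bound by NF-Y), TATAAA (the TATA box), AGGTCA (a half-site of nuclear receptors), TTTATG (a site of Cdx factors) and TGATNNAT (a site of Pbx and Hox pairs).
Hoxb1: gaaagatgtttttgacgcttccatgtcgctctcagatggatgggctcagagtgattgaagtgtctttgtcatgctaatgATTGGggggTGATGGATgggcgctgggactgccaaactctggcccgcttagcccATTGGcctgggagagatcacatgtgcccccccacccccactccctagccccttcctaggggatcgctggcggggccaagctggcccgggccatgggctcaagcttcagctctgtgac
Hoxb4: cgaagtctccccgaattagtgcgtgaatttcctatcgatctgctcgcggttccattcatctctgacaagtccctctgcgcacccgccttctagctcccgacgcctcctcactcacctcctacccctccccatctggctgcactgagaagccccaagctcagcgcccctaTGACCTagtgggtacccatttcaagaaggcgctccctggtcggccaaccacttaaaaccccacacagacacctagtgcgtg
Hoxb8: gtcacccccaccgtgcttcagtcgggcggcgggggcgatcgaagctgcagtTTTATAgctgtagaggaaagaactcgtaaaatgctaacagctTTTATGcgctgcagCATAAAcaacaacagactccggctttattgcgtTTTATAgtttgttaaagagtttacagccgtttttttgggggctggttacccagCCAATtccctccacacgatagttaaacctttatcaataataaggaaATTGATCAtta
The Hoxb8 window held 2 matches to TATAAA, 2 to TTTATG, 1 to CCAAT and 1 to TGATNNAT. The Hoxb1 window held 2 matches to CCAAT and 1 to TGATNNAT, and the Hoxb4 window 1 match to AGGTCA. Of 32851 windows of the same length in the table, 33.9% held CCAAT, 12.4% TATAAA, 14.0% AGGTCA, 10.8% TTTATG and 7.68% TGATNNAT. CpG dinucleotides numbered 7, 14 and 12 in the Hoxb1, Hoxb4 and Hoxb8 windows, against a median of 6 over all windows. RefSeq models of Hoxb8 also begin upstream of this start. A match is a description of the letters and not a measured binding site.

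Of the 14 probes 11 were kept, from 8 genes, and 10 of these were well above background in both regions. The arch pool held less RNA at 4 of the 11 kept probes by the 1.5-fold rule, and at 0 was it higher. Over all kept probes 0.183% were called lower and 0.210% higher. The 4 probes belong to Hoxb7, which stood far apart at a 6.10-fold lower level in the arch, and to Hoxb3, Hoxb6 and Hoxb5, which were 1.99-fold, 1.96-fold and 1.86-fold lower. These near-equal folds hold with the offset of 50 that was added to every signal: with an offset of 0 they were 4.05-fold, 2.60-fold and 2.97-fold, and by the scanner software's ratios 5.40-fold, 2.75-fold and 3.47-fold. Hoxb6 has a second kept probe that showed no such difference. At the brightest kept probe of each gene, 3 of 8 genes were called lower (0.227% of all gene names measured that way) and 0 higher (0.255%). The median over the 11 kept probes was −0.37, beside −0.0013 over all kept probes. One of the 11, a Hoxb8 probe, was kept through the thoracic pool alone; over the 10 probes well above background in both regions the median was −0.26, and over all 14 it was −0.11. In bulk pools, fewer cells of a type and less RNA per cell cannot be told apart.

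**Figure D1:**
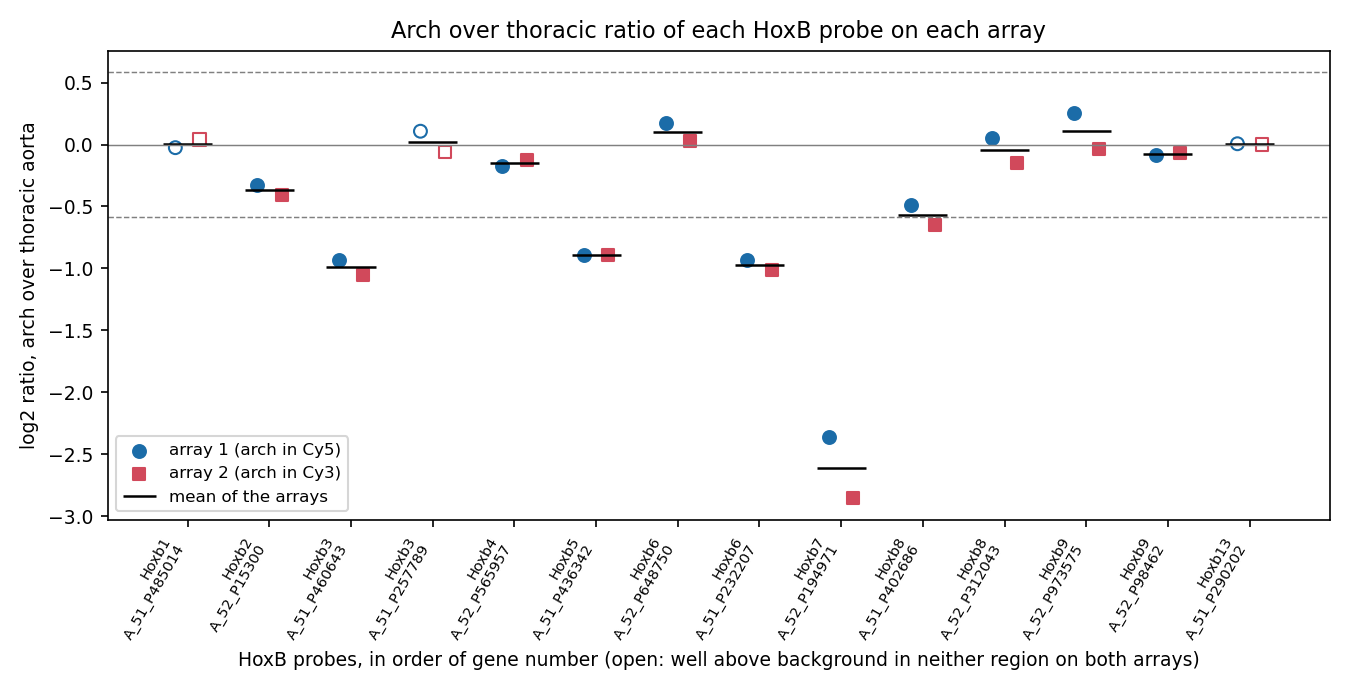
Log2 ratio of arch over thoracic aorta (vertical axis) for each of the 14 HoxB probes in order of gene number. Circles are array 1, squares array 2, bars their mean, open symbols are probes not kept, and dashed lines mark 1.5-fold. Hoxb7 lies at −2.61, and 1 probe each of Hoxb3, Hoxb5 and Hoxb6 lies between −0.99 and −0.89. Hoxb4 lies at −0.15 and the Hoxb9 probes at −0.08 and 0.11.

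Hoxb7, a homeodomain factor whose regulatory DNA is widely used to mark the developing ureteric duct, carried the strongest difference. At probe A_52_P194971 (NM_010460) the raw spot signal in the arch was 151 intensity units on array 1 and 125 on array 2 (local background 48 and 41). In the thoracic aorta it was 799 and 974, over 42 and 48. The thoracic spots were thus brighter whichever dye they carried, and no signal of the pools overlapped. The log2 ratio was −2.36 on array 1 and −2.86 on array 2, or −2.61 ± 0.25. This half-difference is wider than the SD of 0.08 among the 2000 kept probes closest in brightness, and still small beside the ratio itself. Among all kept probes the Hoxb7 ratio ranked 2 from the lowest. The genes with the most similar ratios over both arrays, by the summed absolute difference, were its paralog Hoxa7 (−2.89 ± 0.21, a sum of 0.57), the secreted Wnt antagonist Sfrp4 (−2.39 ± 0.04, 0.58) and Mup1 of the major urinary proteins (−1.83 ± 0.09, 1.55).

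Hoxb5 and Hoxb6, neighbours of Hoxb7 on its anterior side, were lower in the arch at one probe each. Hoxb5, which acts in the enteric nervous system and the lung, gave arch signals of 90.5 and 93.6 on arrays 1 and 2, and thoracic signals of 180 and 171, over local backgrounds from 40 to 48. Its ratio at A_51_P436342 (NM_008268) was −0.89 ± 0.00, with both arrays at nearly the same value. Hoxb6, a gene of lateral plate mesoderm, gave arch signals of 129 and 127 and thoracic signals of 256 and 272 at A_51_P232207 (NM_008269), a ratio of −0.97 ± 0.04. The second Hoxb6 probe, A_52_P648750, designed on the older sequence X56459, gave 364 and 338 in the arch against 334 and 386 in the thoracic aorta. Here the pools overlapped, each being the brighter in Cy5, and the ratio was 0.10 ± 0.07. The difference between both Hoxb6 probes was 1.07 ± 0.03, far beyond the distance between the arrays, so the Hoxb6 probes disagree. As the mean of its probes Hoxb6 measured −0.44 and was not called. The probes' own sequences were not used here.

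At the anterior end of the cluster, Hoxb3 was lower in the arch. Hoxb3, which with its paralogs patterns the pharyngeal arches, gave thoracic signals of 151 and 164 at A_51_P460643 (NM_010458). In the arch it gave 72.8 and 82.1, over backgrounds of 48 and 40. The thoracic spots were the brighter on both arrays, and the ratio was −0.99 ± 0.06. The arch signal was close to the floor of the measurement: after subtraction of the local background it was 24.8 units on array 1 (Cy5) and 42.1 on array 2 (Cy3), where the 95th percentile of negative control spots was 14.2 and 38.6. The second Hoxb3 probe, A_51_P257789 (AK036636), was well above background in neither pool, and its ratio of 0.02 ± 0.08 says nothing about the gene. Hoxb2, a regulator of hindbrain segments, was among the brighter members, with arch signals of 308 and 298 and thoracic signals of 396 and 458. The pools did not overlap, but the ratio at A_52_P15300 (NM_134032), −0.37 ± 0.04, was short of 1.5-fold. It was far from 0 beside the 0.08 SD between arrays of probes of like brightness, and ranked 193 from the lowest of all kept probes. Hoxb1, which specifies a hindbrain segment, was not well above background in any channel, with signals from 58.2 to 68.2, and no fold is given.

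Hoxb4, best known for its role in blood stem cells, was not called lower or higher. Its signals at A_52_P565957 (NM_010459) were 87.3 and 90.2 in the arch and 109 and 93.5 in the thoracic aorta. The ratio was −0.15 ± 0.02, below 0 on both arrays. For this dim probe it was −0.34 ± 0.03 with an offset of 0 and −0.38 ± 0.08 by the scanner software's ratios. The RefSeq entry of Hoxb4 is overlapped by that of Hoxb3, whose kept probe measured −0.99 ± 0.06 in the main setting. A share of Hoxb3 transcripts in the Hoxb4 signal was not tested.

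**Figure D2:**
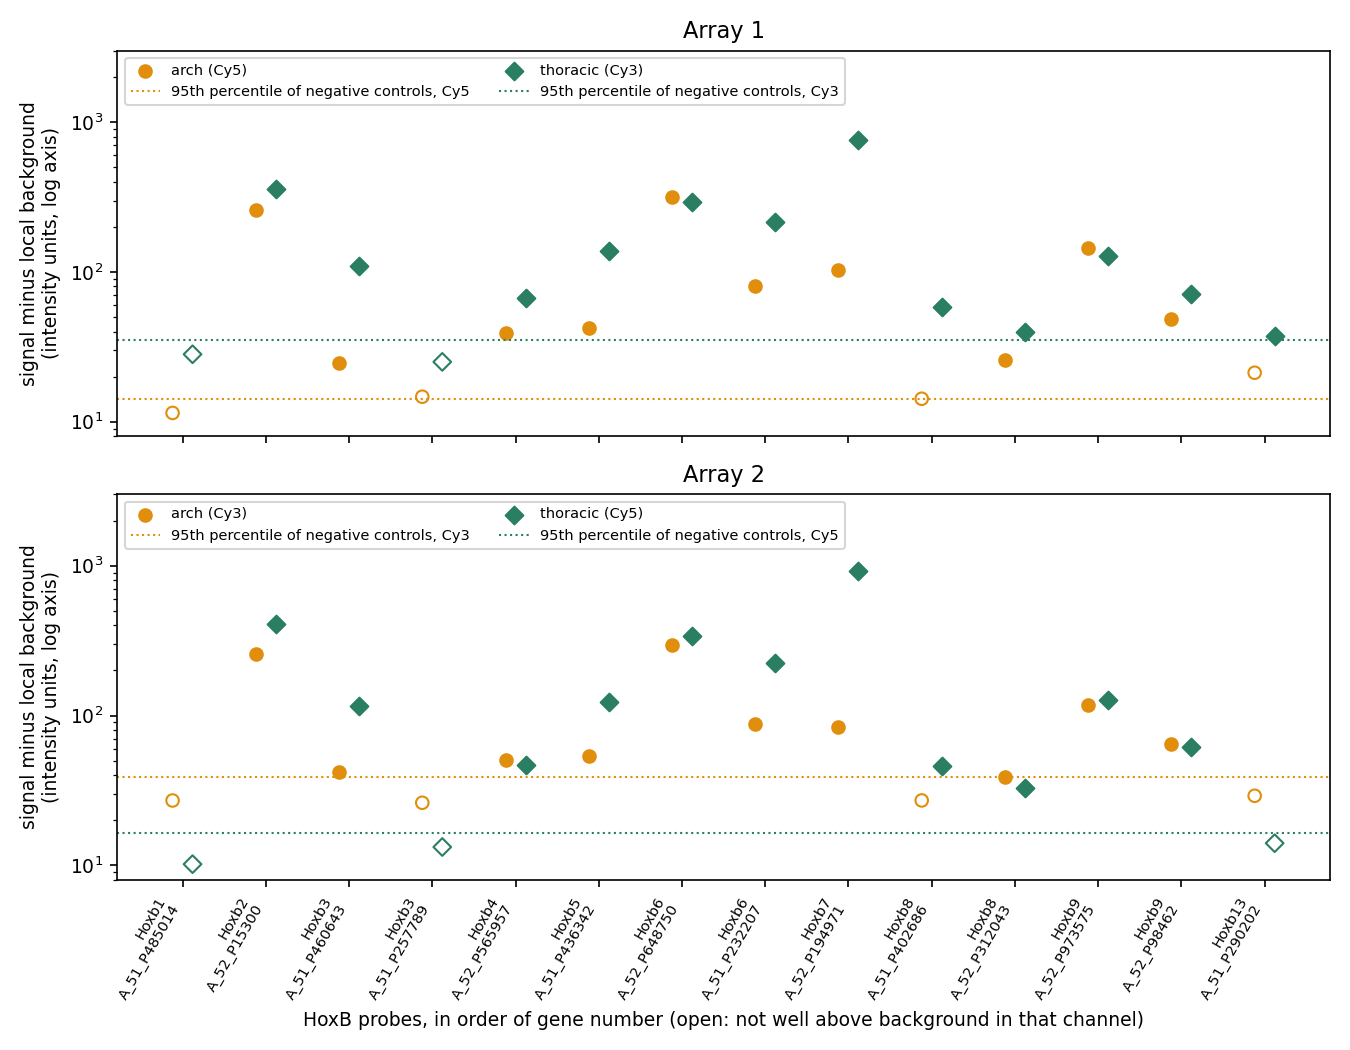
Spot signal minus local background (vertical log axis, intensity units) of each HoxB probe in the arch pool (circles) and the thoracic pool (diamonds), array 1 above and array 2 below. Open symbols are channels not well above background and dotted lines the 95th percentile of negative control spots in that dye; the Hoxb7 thoracic spots reach 757 and 926 units while its arch spots stay at 103 and 83.7.

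Posterior to Hoxb7 the differences were smaller or rested on dim spots. Hoxb8, a posterior member that also marks a lineage of microglia, has 2 probes on the same RefSeq transcript. At A_51_P402686 the thoracic signals were 99.0 and 92.8, well above background on both arrays, while the arch signals of 62.2 and 68.1 were not so on either. The arch therefore has only a bound here, which put the thoracic level 1.47-fold higher as the mean of both arrays. It is no guaranteed minimum: array 1 alone lay below it, and a higher floor could lower it. This bound sets the thoracic mean against the higher, on each array, of the probe's own arch level and the lowest arch signal well above background, with each channel taken after loess and then Aquantile normalisation. For this probe the measured ratio of −0.57 ± 0.08 missed the rule because array 1 gave −0.49. The other probe, A_52_P312043, was marked well above background in both pools, with signals from 73.8 to 79.7. In Cy3 it was close to the floor. There the arch on array 2 lay 38.9 units above local background and the thoracic pool on array 1 39.7. The 95th percentile of negative control spots was 38.6 and 34.9. The ratio at this probe was 0.05 on array 1 and −0.15 on array 2, so that the arrays differed in sign. The pools were thus apart at one Hoxb8 probe and overlapped at the other, and no size is given for the difference between the probes, since one of them has only a bound.

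Hoxb9, which shapes the ribs and sternum, did not differ beyond 1.5-fold at either probe. A_52_P98462 (NM_008270) gave 96.3 and 106 in the arch and 114 and 111 in the thoracic aorta, a ratio of −0.08 ± 0.01. A_52_P973575 (AK078860) gave 193 and 158 in the arch and 170 and 175 in the thoracic aorta, a ratio of 0.11 ± 0.14 with opposite signs on the arrays. Hoxb13, the outlying posterior gene known from the prostate, was well above background in a single channel, the thoracic pool on array 1. Its signals ran from 61.0 to 78.5, so it was not kept.

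The ratios did not follow the order of gene numbers, which is also the order along the chromosome except that the Hoxb3 entry spans Hoxb4. From the anterior to the posterior end they were, at the brightest kept probe, −0.37 (Hoxb2), −0.99 (Hoxb3), −0.15 (Hoxb4), −0.89 (Hoxb5), 0.10 (Hoxb6), −2.61 (Hoxb7) and 0.11 (Hoxb9), with Hoxb8 at −0.57 as a measured value that has only a bound in the arch. The place of Hoxb6 depends on the probe. At its lower probe, −0.97 in the main setting, the values fell in order from Hoxb5 to Hoxb7, while those from Hoxb2 to Hoxb5 did not. With an offset of 0 and by the scanner software's ratios Hoxb5 lay below this Hoxb6 probe, so the fall from Hoxb5 to Hoxb6 was lost. The 10 probes measured in both regions were also ordered by size. Hoxb7 was the lowest, followed by Hoxb3 at a distance of 1.62. This distance was 1.19 with an offset of 0 and 0.85 by the scanner software's ratios, and the array values of both genes did not overlap under any of these. By the scanner software's ratios the lower Hoxb8 probe, left out of this order, overlapped Hoxb7 (−2.53 and −3.09 on the arrays, against −2.95 and −3.61). Hoxb3 and the lower Hoxb6 probe overlapped in their array values with the main setting, but not with an offset of 0 (−2.02 ± 0.15 and −1.38 ± 0.08) or by the scanner software's ratios (−2.43 ± 0.02 and −1.46 ± 0.04), where Hoxb5 came between them. Hoxb2 and Hoxb4 followed Hoxb5 without overlap in the main setting, while by the scanner software's ratios Hoxb2 and Hoxb4 overlapped. In the main setting the lower Hoxb9 probe, the upper Hoxb8 probe and the upper probes of Hoxb6 and Hoxb9 each overlapped with the next. Of the 11 kept probes 8 lay below 0 on both arrays, 1 above 0 on both and 2 had opposite signs. The genes beside the cluster were not called, with Skap1 (listed as Scap1), beyond Hoxb1, at −0.06 ± 0.02 and Ttll6, beyond Hoxb13, at 0.05 ± 0.04. By the scanner software's ratios Skap1 measured −0.26 ± 0.01 and Ttll6 0.10 ± 0.02.

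**Figure D3:**
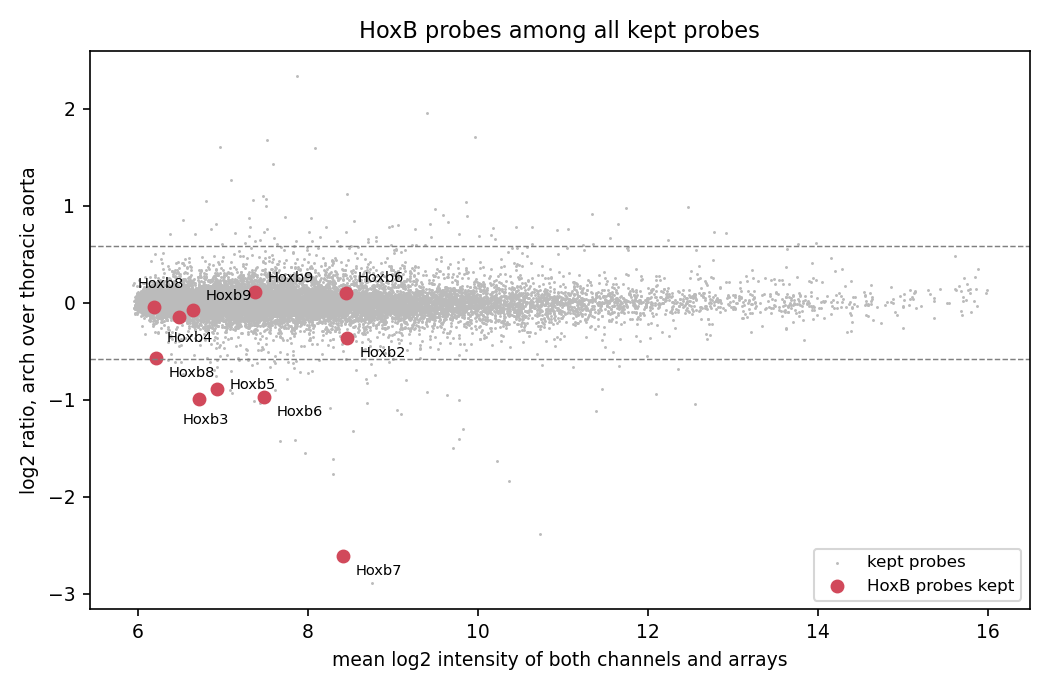
Log2 ratio of arch over thoracic aorta against mean log2 intensity for all 30521 kept probes (grey), with the 11 kept HoxB probes in red and dashed lines at 1.5-fold. Hoxb7 at −2.61 lies with Hoxa7 at −2.89 and Sfrp4 at −2.39 as the 3 lowest probes, apart from all other HoxB probes, which lie at −0.99 or above.

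The size of these ratios, but not the direction of the called ones, depended on how background was treated. The main offset of 50 pulls ratios of dim probes toward 0. With an offset of 0 Hoxb7 measured −3.21 ± 0.38, Hoxb3 −2.02 ± 0.15, Hoxb5 −1.57 ± 0.06 and the lower Hoxb6 probe −1.38 ± 0.08. The ratios of the scanner software were −3.28 ± 0.33, −2.43 ± 0.02, −1.79 ± 0.01 and −1.46 ± 0.04. The lower Hoxb8 probe met the rule with both, at −2.02 ± 0.59 and −2.81 ± 0.28. Its arch signal was not above background, and the scanner software's own error on that log2 ratio was 1.03 on array 2 and no smaller on array 1. For Hoxb7 that error was 0.28 and 0.32, and for Hoxb3 0.45 and 0.39. With an offset of 0, 5 of 11 kept HoxB probes were called lower and 0 higher, where 0.413% of all kept probes were lower and 0.478% higher. By the scanner software's ratios it was again 5 and 0, with 0.524% of all kept probes lower and 0.655% higher. With median centring in place of loess it was 4 and 0, while the split over all kept probes turned from 56 lower and 64 higher to 85 lower (0.278%) and 35 higher (0.115%).

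**Figure D4:**
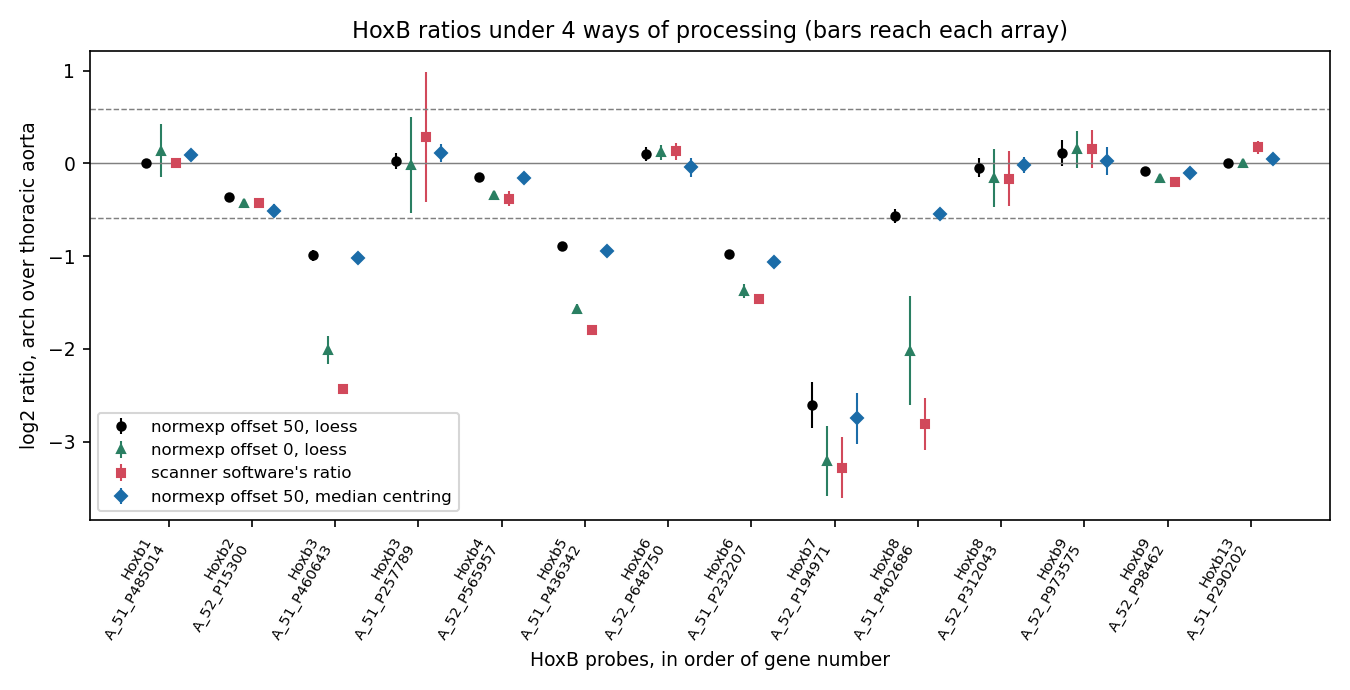
Log2 ratio of arch over thoracic aorta of each HoxB probe under the main setting (black), an offset of 0 (green), the ratio of the scanner software (red) and median centring (blue), with bars that reach each array. Hoxb3 moves from −0.99 to −2.43 and the lower Hoxb8 probe from −0.57 to −2.81, while Hoxb2 stays between −0.51 and −0.37.

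Paralogs, the matching genes of the other Hox clusters, differed in part as HoxB members did. Of 20 kept probes of HoxA, HoxC and HoxD genes, 3 were called lower and 0 higher, with a median of 0.03; whether the clusters differ was not tested. With an offset of 0 it was 3 lower and 1 higher (Hoxa2), and by the scanner software's ratios 4 lower, Hoxc9 being added at −0.94 ± 0.26, and 2 higher (Hoxa2, and Hoxd4 at 0.68 ± 0.01). In paralog group 7 Hoxa7 measured −2.89 ± 0.21, and its array values overlapped those of Hoxb7. In group 5 Hoxa5 was lower (−0.70 ± 0.03) like Hoxb5, and Hoxc5 measured 0.22 ± 0.11. In group 6 Hoxc6 was lower (−0.93 ± 0.10), close to the lower Hoxb6 probe, and Hoxa6 measured 0.03 ± 0.08. Group 3 was split: beside Hoxb3 at −0.99, the probes of Hoxa3 gave 0.05 ± 0.02 and −0.01 ± 0.00, and Hoxd3 gave 0.07 ± 0.03. In group 2 Hoxa2 measured 0.33 ± 0.02 where Hoxb2 measured −0.37 ± 0.04, opposite signs on both arrays at ratios short of 1.5-fold. Hoxa2 was called higher with an offset of 0 (0.67 ± 0.03) and by the scanner software's ratios (0.72 ± 0.04), and Hoxb2 was called with neither. In group 8 Hoxc8 was not kept, and Hoxd8, well above background in the arch alone, measured 0.02 ± 0.15 with opposite signs on the arrays.

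**Figure D5:**
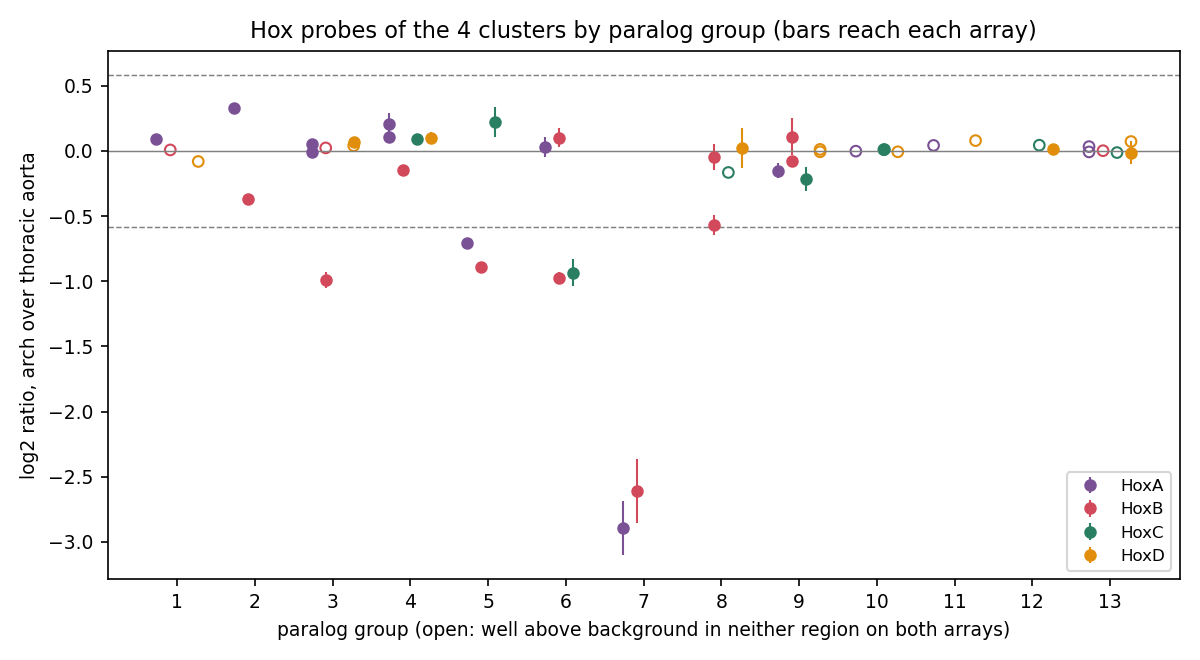
Log2 ratio of arch over thoracic aorta for the Hox probes of all clusters by paralog group, with HoxB in red, bars that reach each array, open circles for probes not kept and dashed lines at 1.5-fold. The called probes lie in groups 3, 5, 6 and 7, and both group 7 genes on the array lie below −2.

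A list of Hox cofactors and regulators of HoxB genes covered Pbx, Meis and Pknox partners, Cdx factors, retinoic acid enzymes and receptors, and Polycomb and trithorax proteins. Among its 35 measured genes 0 were called in either direction, with a median of −0.0049. Over all genes at their brightest kept probe 0.227% were called lower and 0.255% higher. A count of 0 in a list of this size or smaller therefore says little. No Cdx factor was kept, so the 35 hold none, and not every Meis gene or retinoic acid receptor is among them. At the brightest probe of each gene the list ran from −0.10 ± 0.04 for Suz12, a Polycomb subunit, to 0.45 ± 0.01 for Gmnn, geminin, which binds Hox proteins and Polycomb. The 6 smooth muscle markers were all well above background and 0 were called, from −0.22 for Des to 0.06 for Smtn. All 6 endothelial markers were also kept after the detergent, and 0 were called, but their signals were dim. Summed over the 6 genes, signal above background was 297 to 398 units over both pools and arrays. At the brightest Cdh5 probe the arch was not well above background on both arrays.

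Some markers of adipocytes and cardiomyocytes were called higher in the arch pool, where 0.255% of all genes were at their brightest kept probe. Of 5 measured adipocyte markers 3 were higher there (Cidea 0.81 ± 0.03, Cox8b 0.78 ± 0.07 and Adipoq 0.66 ± 0.06), and 0 with median centring. Summed over the 5 measured adipocyte markers, signal above background was 33580 units for the arch pool on array 1, against 20920 for the thoracic pool. On array 2 it was 27510 against 29000, so each pool had the larger sum where it carried Cy5. These sums were taken before normalisation and do not show which pool held more. Of 5 measured cardiomyocyte markers 2 were higher, Myl7 at 2.33 ± 0.01 and Tnnt2 at 1.59 ± 0.03. Actn2, Ryr2 and Nppa were not called, with 0.02, 0.03 and 0.28 at their brightest probes. The sums over the measured cardiomyocyte markers were 1211 to 1293 in the arch against 510 to 556, while Myh6 was well above background in neither pool. The 3 measured mesothelial markers ran from 0.22 to 0.65 with 0 called; with an offset of 0 Upk3b was higher, and by the scanner software's ratios Upk3b (0.96 ± 0.13) and Wt1 (0.70 ± 0.06) were. The lists for skeletal muscle, nerve, adventitial fibroblasts, macrophages, lymphocytes, thymus epithelium and notochord or vertebra had 0 called genes, with medians from −0.17 (macrophages) to 0.08 (thymus epithelium). The part of these tissues in the HoxB ratios was not tested.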

How the data were processed

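RNA levels of both pools were read on 2 Agilent arrays. The submitters' processing notes name Agilent Feature Extraction 9.1.1.1. In the scanner files the authors deposited, each spot has a mean and a local background intensity in Cy5 and Cy3, and a log10 ratio of processed signals with its error. Direction was taken from the dyes in the labels. The deposited value table, whose scale and direction are not stated, held the same log10 ratios, written as arch divided by thoracic, for 99.9% of features per array (within 1e-05 in log2; medians 0). No genome build is named in the file headers, and gene names are the files' own.

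Intensities were corrected with normexp (offset 50) and normalised by loess per array, control spots having weight 0 (limma 3.58.1, R 4.3.3). Outlier spots (20 and 4) were left out, and the sign of array 2 was turned. Median gene spot signals were 87.1 to 97.1 units, 71.2% to 81.5% of gene spots were well above background, and no HoxB spot was saturated. The dye swap repeats the same pools, so both arrays form 1 replicate and their number limits the precision.

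Named were all HoxB probes, their paralogs and neighbours, the extremes of the regulator list and the 3 genes nearest to Hoxb7; marker genes were named after their values were seen. Alternatives changed the offset, normalisation, source of ratios, filter, fold rule, probe choice and arrays used. The members and gene lists were chosen with earlier results of these data known, and the motifs after the ratios were known. The scripts were tested on simulated data.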

Additional observations from a re-analysis of the deposited data

How the results depend on the processing

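Of 11 kept HoxB probes 4 were called lower in the arch, and the same 4 probes were among the calls with an offset of 0, the scanner software's ratios, the series' value table, median centring, either filter and a 1.3-fold rule. The count was 5 with an offset of 0, the scanner software's ratios, the value table and the 1.3-fold rule, the lower Hoxb8 probe being added. It was 4 to 5 with one array left out, the lower Hoxb8 probe being added without array 1. A 2-fold rule left 1 probe and 1 gene, Hoxb7. The share of all kept probes was not counted for the other fold rules, the filters or single arrays, so those counts stand without it. The count of genes at their brightest probe was 3, 4 with an offset of 0, the scanner software's ratios, the value table and the 1.3-fold rule, 3 to 4 with one array left out, and 3 as the mean of the kept probes. The count of higher probes was 0 under each of these. The median of the kept HoxB probes was −0.37 and −0.51 with median centring, which moved Hoxb6 at its upper probe from 0.10 to −0.04; it was −0.43 with an offset of 0, −0.43 by the scanner software's ratios, −0.26 with the filter on both regions, −0.11 with no filter and −0.41 to −0.33 with one array left out. The settings tried on the other Hox clusters, the markers and the order of the members were chosen after seeing the data. Signal over background limits Hoxb3 and Hoxb8 in the arch, and Hoxb1, Hoxb13, the upper Hoxb8 probe and the second Hoxb3 probe in both pools. No paired analysis was possible because the arrays share the same pools.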
